A study of Mus musculus with 24 samples.

Results

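Daughters of mothers fed a low-protein diet (LPD) were compared with daughters of mothers fed a control diet (ND), 8 of the 24 libraries of a study of maternal diet and mouse β cells. The tables were searched for the columns named for daughters of each diet, which gave 4 LPD and 4 ND libraries. Per the labels, wild-type CD1 females of about 7 weeks ate LPD or ND for 2 weeks before they were crossed with Ins1Apple males. Every mouse ate the control diet from birth, so LPD daughters met the low-protein diet only through their mothers. In both groups β cells were sorted by the Apple reporter from dispersed islets at about 7 weeks of age, and RNA depleted of ribosomal RNA was sequenced. The labels do not say which daughters shared a mother or litter, or whether cells were pooled, so p-values measure only the spread between these libraries, which may be technical. The count table also carries a line of library numbers, which would put all 24 columns in another diet group and 8 of them in the other sex. The column names were followed. Xist and Y-linked counts were closer to the sex in the names than to the other sex for all 24 columns, but this check does not reach the diet. ND daughter 2 held 211 Y-linked counts, against 0 to 47 in the other 7 daughters and 2941 to 3878 in LPD and ND sons, and its part in the results was not tested beyond leaving it out. Grouped by library number instead, columns named for ND sons stood as LPD daughters, and columns named for daughters of a high-fat diet as ND daughters. Xist then differed by -8.83 on the log2 scale (edgeR adjusted p = 5.13e-05), so that grouping set sons against daughters. It called 160 genes, of which 3 were among the 282 described here with the same direction. The results hold only if the column names are right.

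β cells make, fold, package and secrete insulin, and they carry a heavy load of protein synthesis and endoplasmic reticulum (ER) folding. They sense glucose by metabolising it: ATP closes potassium channels, calcium enters, and granules are released. Shortage of amino acids and misfolded protein both act through stress pathways that slow translation and switch on chaperones, amino acid enzymes and aminoacyl-tRNA synthetases. Maternal protein restriction is a standard rodent model for lasting effects of the early diet on islets.

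The sorted cells carried the marks of β cells. The insulin genes of the mouse, Ins1 and Ins2, made up 13.5% to 16.9% of counts in LPD and 7.65% to 16.3% in ND daughters. Library totals were 22388100 to 25116855 counts in LPD and 20099709 to 25597700 in ND, and 15131 of 33619 genes reached 1 CPM (counts scaled to a common library total, with TMM factors where a gene is given) in at least 4 of the 8 libraries and were tested. Transcripts of exocrine acinar cells were the main sign of another cell type that moved between libraries. All 30 acinar markers summed to 166, 157, 582 and 1165 CPM in LPD daughters 1 to 4, against 654 to 1138 CPM in ND daughters, and 1 of the 30 was at 0 in every library. The LPD libraries thus ran from far below the ND range to just above it. Alpha-cell markers summed to 2196 to 2512 CPM in LPD and 1593 to 2242 CPM in ND. Of the 12 sums compared, none passed after adjustment (exact permutation test, 2-sided, adjusted p of at least 0.343, smallest possible p = 0.029). In sorted bulk RNA, fewer cells of a type and less RNA per cell cannot be told apart.

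Between LPD and ND daughters, 282 genes changed, which was 1.86% of those tested (edgeR quasi-likelihood test, adjusted p below 0.05). Of these, 138 were higher in LPD (0.912% of tested genes) and 144 were lower (0.952%). Most changes were small: the median log2 fold change was 0.61 among genes that rose and -0.62 among genes that fell. In 267 of the 282 the values of the LPD libraries did not overlap those of the ND libraries, while 11.4% of all tested genes showed no overlap. The number of calls depended strongly on single libraries. It was 74, 77 and 32 without LPD daughter 1, 2 or 3, 152, 95 and 51 without ND daughter 1, 2 or 3, 297 without LPD daughter 4, and 1167 without ND daughter 4. All 282 kept their direction in these 8 fits, and 30 were called in every one of them, 11 higher and 19 lower.

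**Figure D1:**
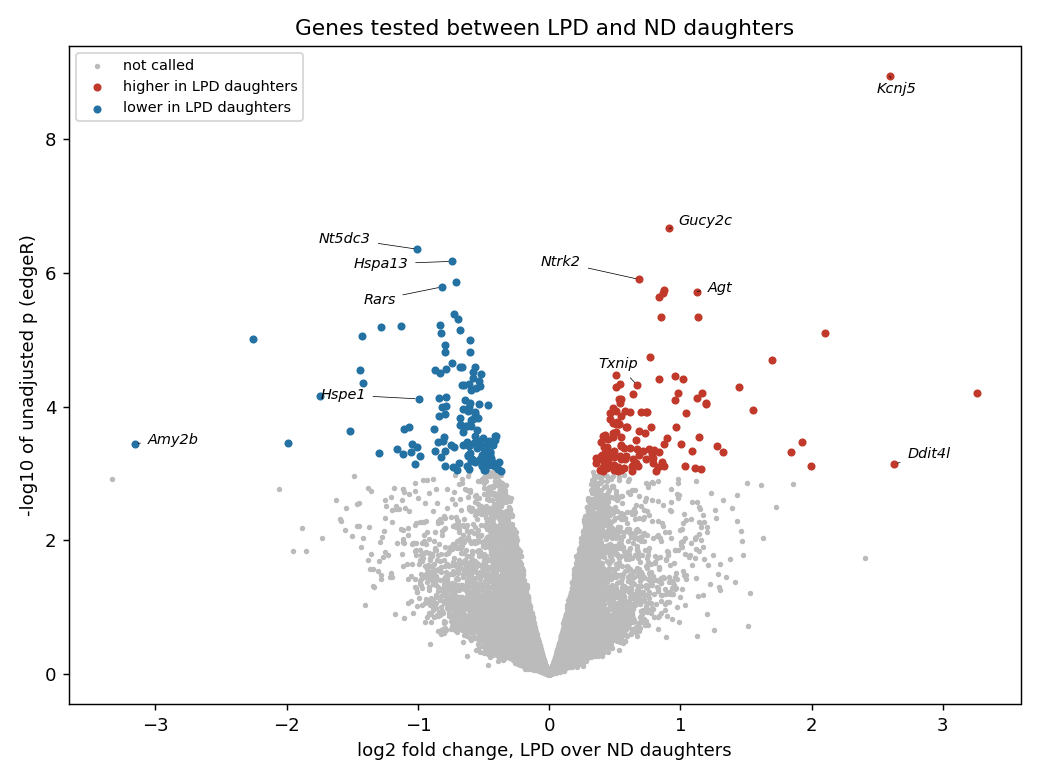
Each point is one of 15131 tested genes, with the log2 fold change of LPD over ND daughters on the x axis and -log10 of the unadjusted edgeR p on the y axis. The 138 genes called higher are red and the 144 called lower are blue, and Kcnj5 stands above every other gene.

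The gene that rose most clearly was Kcnj5, which encodes the inwardly rectifying potassium channel subunit GIRK4, opened by G proteins (ENSMUSG00000032034.6, GRCm38, chromosome 9, 32314707 to 32344350). Kcnj5 stood at 13.9, 13.3, 10.6 and 11.5 CPM in LPD daughters, against 1.92, 1.68, 2.1 and 2.44 CPM in ND daughters. Every LPD library was thus far above the highest ND library. Kcnj5 was 6.04-fold higher in LPD, with 2.59 ± 0.19 (SE) on the log2 scale and an edgeR adjusted p of 1.73e-05, and it was called in all 8 fits that left out a library. A second potassium channel gene, Kcnk3, which encodes the background channel TASK-1, stood at 8.58, 6.11, 7.51 and 9.18 CPM in LPD, against 4.17, 3.63, 2.28 and 3.61 CPM in ND. Kcnk3 rose by 1.19 ± 0.22 (edgeR adjusted p = 0.0188) but was not called without LPD daughter 1 or 3 or ND daughter 2 or 3 (adjusted p up to 0.0705). These were the 2 of 32 tested genes of glucose sensing and excitability that changed, 6.25% against 1.86% of all tested genes. The list's median log2 fold change was 0.23 with 24 of 32 above 0, beside a median of 0.004 over all tested genes. In the fits that left out a library 1 to 3 of its genes rose, and 9 without ND daughter 4. Slc2a2, the glucose transporter of β cells, was at 1257 to 1287 CPM in LPD and 816 to 1145 CPM in ND, without overlap, yet was not called (log2 fold change 0.37 ± 0.11, edgeR adjusted p = 0.0911).

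Gucy2c, the receptor guanylyl cyclase for guanylin peptides, had 36.6, 37.8, 37.7 and 39.3 CPM in LPD, against 20.2, 22.3, 18.7 and 19 CPM in ND (log2 fold change 0.92 ± 0.10, edgeR adjusted p = 0.00164). Ntrk2, which encodes the neurotrophin receptor TrkB, had 329, 323, 347 and 329 CPM in LPD, against 211, 195, 188 and 229 CPM in ND (0.69 ± 0.09, adjusted p = 0.00299). Agt, the precursor of the angiotensin peptides, had 83.0, 73.6, 72.9 and 69.2 CPM in LPD, against 35.6, 25.8, 29.3 and 45.9 CPM in ND (1.13 ± 0.15, adjusted p = 0.00299). The groups were well apart for all 3 genes, and each was called in all 8 fits that left out a library. Agt was the only called gene of the 12 tested members of the angiotensin system. Kl, which encodes klotho, a co-receptor for fibroblast growth factor 23, and F13a1, the A subunit of coagulation factor XIII, rose by 0.87 ± 0.11 and 1.14 ± 0.16 (edgeR adjusted p = 0.00299 and 0.00494). Iqsec1, an exchange factor for ARF6, rose by 0.87 ± 0.11 (adjusted p = 0.00299).

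Several genes best known from neurons were higher. Dcx, which encodes the microtubule-binding protein doublecortin, had 90.5, 93.6, 102 and 116 CPM in LPD, against 46.5, 55.2, 52.6 and 68.3 CPM in ND (log2 fold change 0.85 ± 0.12, edgeR adjusted p = 0.00494). Crmp1, a collapsin response mediator protein, averaged 43.7 ± 2.09 CPM in LPD and 24.5 ± 3.35 CPM in ND (SD, n = 4 each, 0.84 ± 0.11, edgeR adjusted p = 0.00314). Foxp2, a forkhead transcription factor, and Unc5a, a netrin receptor, rose by 0.96 ± 0.16 and 0.64 ± 0.12 (edgeR adjusted p = 0.0131 and 0.0164). Nrcam, a neuronal cell adhesion molecule, differed among LPD libraries, at 13.9, 15.8, 25.8 and 32.1 CPM, against 9.93, 8.47, 8.44 and 12.9 CPM in ND (1.14 ± 0.24, edgeR adjusted p = 0.0324, and up to 0.13 without LPD daughter 3 or 4 or ND daughter 1, 2 or 3). Dcx and Crmp1 were called whichever library was left out. These 5 genes were picked out as a group after their values were seen, and no test of the group was made. Schwann and neural markers summed to 126 to 130 CPM in LPD and 101 to 124 CPM in ND (exact permutation p = 0.029, adjusted p = 0.343). Their part in these results was not tested.

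**Figure D2:**
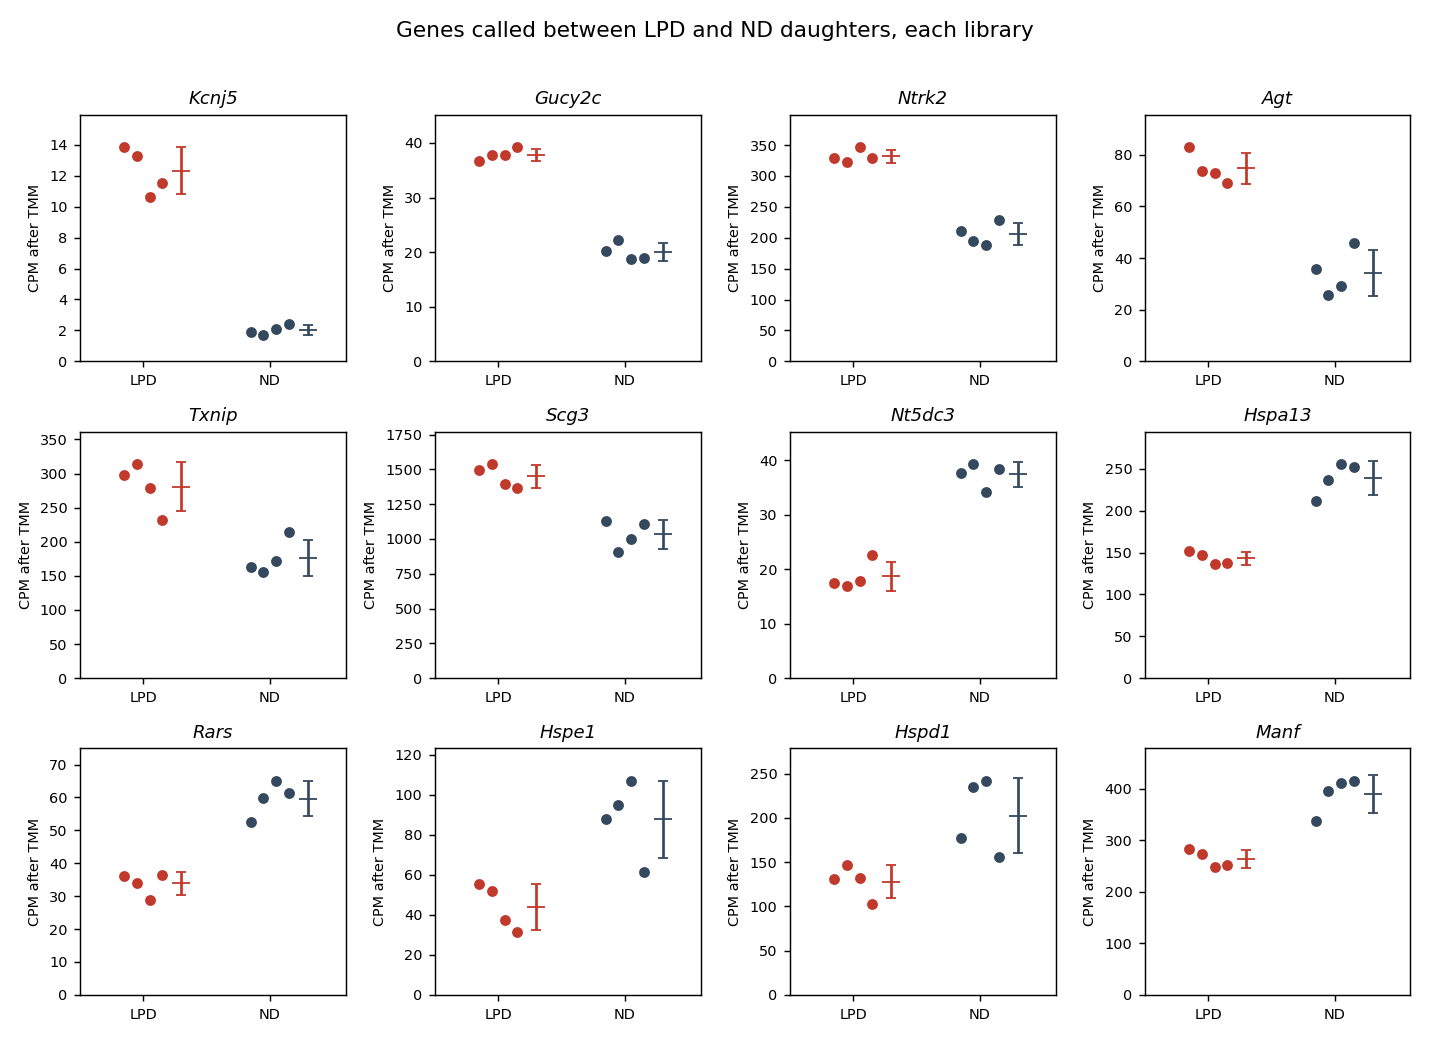
CPM after TMM scaling for 12 called genes, with each library as a point, LPD daughters left and ND daughters right, libraries 1 to 4 in order within a group. The horizontal tick and bar give the mean ± SD of 4 libraries. The groups do not overlap in any panel, and they lie close together for Hspd1 (highest LPD library 146 CPM, lowest ND library 156 CPM) and Txnip (lowest LPD library 231 CPM, highest ND library 214 CPM).

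Txnip, the thioredoxin-interacting protein, is induced by glucose in β cells through the factor ChREBP and limits glucose uptake. It had 298, 314, 279 and 231 CPM in LPD daughters, against 164, 156, 171 and 214 CPM in ND daughters (log2 fold change 0.67 ± 0.12, edgeR adjusted p = 0.0143). LPD daughter 4 lay nearest to the ND libraries and ND daughter 4 nearest to the LPD libraries. Without LPD daughter 1, 2 or 3 or ND daughter 3 Txnip was not called (edgeR adjusted p up to 0.0693). It was the only called gene among 17 tested glucose-responsive genes, whose median log2 fold change was 0.06. Its promoter is shown because the glucose-response site is known there. The 300 bases (GRCm38.p6 of RefSeq, chr3:96557707-96558006, plus strand) run from 250 before to 50 after the start, and capitals mark a match to a carbohydrate response element.
Txnip promoter: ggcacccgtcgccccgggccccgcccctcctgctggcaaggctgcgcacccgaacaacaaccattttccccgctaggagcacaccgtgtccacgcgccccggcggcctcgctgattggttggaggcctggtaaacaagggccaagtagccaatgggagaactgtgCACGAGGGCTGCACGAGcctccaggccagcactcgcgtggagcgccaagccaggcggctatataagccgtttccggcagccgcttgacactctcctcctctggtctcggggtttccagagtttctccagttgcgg
The pattern searched on both strands was CACGNGNNNNNCNCGNG, where N is any base. It starts 85 bases before the start site and occurs in 0.365% of 32851 mouse promoters. A match is a description of the letters and not evidence of binding.

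The gene with the smallest p among those that fell was Nt5dc3, of the family of 5'-nucleotidase domain proteins. Nt5dc3 had 17.4, 16.9, 17.8 and 22.6 CPM in LPD, against 37.8, 39.4, 34.2 and 38.5 CPM in ND (log2 fold change -1.0 ± 0.12, edgeR adjusted p = 0.00224). Aminoacyl-tRNA synthetases load amino acids onto tRNAs. Rars, the synthetase for arginine, had 36.1, 34.1, 28.8 and 36.6 CPM in LPD, against 52.4, 59.7, 65.1 and 61.3 CPM in ND (log2 fold change -0.82 ± 0.11, edgeR adjusted p = 0.00299). Nars, for asparagine, had 86.1, 93.1, 92.7 and 100.4 CPM in LPD, against 133, 157, 163 and 157 CPM in ND (-0.71 ± 0.09, adjusted p = 0.00299). The LPD and ND libraries were far apart for both genes, which were called in all 8 fits that left out a library. Mars and Sars, for methionine and serine, fell by 0.41 and 0.38 (edgeR adjusted p = 0.0342 and 0.0434), each called in only 2 of the 8 fits that left out a library. Of the 23 cytosolic synthetases, a list written after some of these values were seen, 4 fell and none rose. That was 17.4% called against 1.86% of all tested genes. In the list 18 lay below 0, with a median of -0.26. The number that fell was 2 without LPD daughter 1, 2 or 3 or ND daughter 2 or 3, 3 without LPD daughter 4 or ND daughter 1, and 6 without ND daughter 4.

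Nars and Sars are also targets of ATF4, the factor that switches on amino acid genes in the integrated stress response. Of 34 tested genes of that response 4 fell and none rose, 11.8% against 1.86% of all tested genes, and the median was -0.06. Ddit3, which encodes the stress factor CHOP, had 28.1, 22.5, 28.1 and 20.8 CPM in LPD, against 36.2, 39.1, 41.0 and 36.0 CPM in ND (log2 fold change -0.62 ± 0.12, edgeR adjusted p = 0.0206). Atf5, a related factor, fell by 0.39 (edgeR adjusted p = 0.0479), but it was not called in 6 of the 8 fits that left out a library (adjusted p up to 0.143) or with a correction for gene length (0.0924). Atf4 itself was at 177 to 226 CPM in LPD and 162 to 241 CPM in ND (-0.03 ± 0.12, edgeR adjusted p = 0.922). Asns, the asparagine synthetase and a classic ATF4 target, differed by 0.06 ± 0.11 (edgeR adjusted p = 0.801). Of the 34 genes, 21 lay below 0 and 13 above. Ddit3 overlaps the end of Mars on chromosome 10 in the table, and how strand was used in counting is not given in the sources used here. Ddit3 was not called without LPD daughter 2 or 3 or ND daughter 2 or 3 (edgeR adjusted p up to 0.0786), and the list then held 1 called gene in each case, against 2 without LPD daughter 1 and 7 lower and 1 higher without ND daughter 4.

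Chaperone genes of the ER and mitochondria were among those that fell. Hspa13, an Hsp70 family member of the ER that stands in the heat shock list, had 152, 147, 136 and 137 CPM in LPD, against 211, 236, 256 and 252 CPM in ND (log2 fold change -0.74 ± 0.09, edgeR adjusted p = 0.00255), and it was called whichever library was left out. Hspe1 and Hspd1 encode the paired chaperonins of the mitochondrial matrix, HSP10 and HSP60. Hspe1 had 55.3, 52.0, 37.3 and 31.6 CPM in LPD, against 87.8, 94.8, 107 and 61.6 CPM in ND (-0.99 ± 0.18, edgeR adjusted p = 0.0175). Hspd1 had 131, 146, 132 and 102 CPM in LPD, against 177, 235, 242 and 156 CPM in ND (-0.66 ± 0.14, edgeR adjusted p = 0.0356). In both genes library 4 was the lowest of its group. Hspe1 was not called without LPD daughter 3 or ND daughter 2 or 3 (edgeR adjusted p up to 0.092), and Hspd1 was called only without ND daughter 1 or 4 (edgeR adjusted p up to 0.127 in the other 6 fits).

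The promoter of Hspe1 is shown because it lies between the paired genes, which are transcribed away from each other, and serves both. The 300 bases (GRCm38.p6 of RefSeq, chr1:55087898-55088197, plus strand) run from 250 before to 50 after the Hspe1 start. Capitals mark overlapping matches, 1 on each strand, to a heat shock element, the site bound by heat shock factors.
Hspe1 promoter: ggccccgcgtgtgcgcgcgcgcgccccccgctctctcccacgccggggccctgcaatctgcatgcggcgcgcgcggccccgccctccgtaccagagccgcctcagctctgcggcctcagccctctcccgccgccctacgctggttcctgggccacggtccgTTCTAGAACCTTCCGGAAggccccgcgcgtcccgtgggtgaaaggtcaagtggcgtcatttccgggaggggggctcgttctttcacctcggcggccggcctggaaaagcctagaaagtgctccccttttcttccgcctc
The pattern searched on both strands was TTCNNGAANNTTC, where N is any base, and the matched stretch begins 89 bases before the start. It occurs in 0.603% of all 32851 promoters. Among the promoters of genes that fell it was found in 3 of 119 (2.52%), those of Hspe1, Hspd1 and Rps18, and Hspe1 and Hspd1 share the site. Among 130 promoters of genes that rose it was found in none. The pattern was chosen with earlier results of these data known, so these shares are not a test. They describe the letters and are not evidence of binding.

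Of 35 tested heat shock genes of cytosol and mitochondria, 3 fell and none rose, 8.57% against 1.86% of all tested genes. In the list 29 lay below 0, with a median log2 fold change of -0.25. The number that fell was 1 without LPD daughter 3 or ND daughter 2 or 3, 2 without LPD daughter 1, 2 or 4, and 9 without ND daughter 4, where 2 rose. Other members missed the threshold. Hsp90aa1, the inducible cytosolic HSP90, had 393, 417, 304 and 202 CPM in LPD, against 419, 462, 494 and 343 CPM in ND (-0.38 ± 0.18, edgeR adjusted p = 0.269). Dnajb1, an HSP40 co-chaperone, had 618, 660, 420 and 181 CPM in LPD, against 781, 736, 726 and 444 CPM in ND (-0.52 ± 0.29, edgeR adjusted p = 0.364). In both, LPD daughters 1 and 2 lay nearest to ND and LPD daughter 4 lowest. With LPD daughters 1 and 2 left out together the median of the list was -0.42, and with LPD daughters 3 and 4 left out together it was -0.08. The pairs were chosen after the values were seen, so these medians describe that order and do not test it.

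Proteins bound for secretion are carried into the ER and processed there. Manf, a stress-induced protein of the ER lumen, had 284, 273, 249 and 251 CPM in LPD, against 337, 396, 410 and 416 CPM in ND (log2 fold change -0.56 ± 0.09, edgeR adjusted p = 0.0118, and 0.0705 without LPD daughter 3). Sec11c and Spcs2, subunits of the signal peptidase that trims preproinsulin, fell by 0.52 and 0.37 (edgeR adjusted p = 0.0126 and 0.0495). Sec11c was not called without LPD daughter 3 (edgeR adjusted p = 0.0525), and Spcs2 in 7 of the 8 fits that left out a library (adjusted p up to 0.152). Ostc and Ost4, subunits of the oligosaccharyltransferase that adds N-glycans, fell by 0.56 and 0.66 (edgeR adjusted p = 0.0146 and 0.0206), and were called in 7 and 4 of those 8 fits. Of 34 genes of protein entry into the ER, a list written after some values were seen, 6 fell and none rose. That was 17.6% called against 1.86% of all tested genes. In the list 27 lay below 0, with a median of -0.16. None of the 34 was called without LPD daughter 3, 2 without LPD daughter 1 or 2 or ND daughter 3, 3 without ND daughter 1, and 9 without ND daughter 4. Of 37 ER chaperones and unfolded protein response genes, Manf and Fkbp2 fell and none rose, 5.41% against 1.86% of all tested genes. The median of that list was -0.14. Fkbp2 was not called in 5 of the 8 fits that left out a library. Hspa5, the main ER chaperone BiP, was at 1767 to 2129 CPM in LPD and 2022 to 2321 CPM in ND (-0.15 ± 0.10, edgeR adjusted p = 0.427). Creb3, an ER-bound transcription factor, and Selenok, an ER selenoprotein, fell by 0.60 and 0.68 (edgeR adjusted p = 0.00865 and 0.00576).

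Acinar cells are rich in ER, and their markers are given beside these groups because their sum differed between libraries. Of the 25 that were tested, 25 lay below 0 in LPD, with a median log2 fold change of -0.83, but only Amy2b, of the amylase family, was called. The annotation lists Amy2b as an unprocessed pseudogene, and reads may be split among amylase copies. Amy2b had 0, 0, 0.422 and 0.208 CPM in LPD, against 1.5, 1.68, 1.54 and 1.10 CPM in ND, close to the detection floor, since 3 counts in a library corresponded to 0.117 to 0.149 CPM. Cela1, an elastase, had 6.39, 7.19, 33.6 and 70.9 CPM in LPD, against 72.4, 31.1, 52.0 and 39.2 CPM in ND (-0.72 ± 0.55, edgeR adjusted p = 0.517). The low values of Cela1 were thus those of LPD daughters 1 and 2. With both left out, the median over the 25 was -0.06, 10 lay above 0 and none was called. In the same fit the medians were -0.20 for ER entry genes, -0.17 for ER chaperones and -0.21 for tRNA synthetases. They were -0.42 for heat shock genes, -0.34 for respiratory subunits and -0.24 for ribosomal proteins. That fit called 2 heat shock genes, 2 synthetases, 1 respiratory subunit and 1 ribosomal protein, and none of the ER lists. With LPD daughters 3 and 4 left out instead, the median of the acinar markers was -2.84. The pairs were chosen after the values were seen, so the acinar results of both fits follow from that choice. LPD daughters 1 and 2 also differed from LPD daughters 3 and 4 in other genes, such as Ins2 and Ddit4l, so these fits do not isolate acinar RNA. The part of acinar RNA in the changes of the ER lists was not tested.

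Of 76 nuclear genes for subunits of oxidative phosphorylation, 11 fell and none rose, 14.5% against 1.86% of all tested genes. In the list 65 lay below 0, with a median log2 fold change of -0.27. Ndufb10, a subunit of complex I, had 19.8, 25.6, 22.0 and 23.5 CPM in LPD, against 35.3, 37.6, 48.7 and 39.9 CPM in ND (-0.83 ± 0.12, edgeR adjusted p = 0.00576). Atp5j2, a subunit of ATP synthase, and Cox7c, of cytochrome oxidase, fell by 0.80 and 0.79 (edgeR adjusted p = 0.00721 and 0.0195), with Cox7c not called in 4 of the 8 fits that left out a library. Of the 11 that fell, 8 encode complex I subunits, and whether that exceeds the share of complex I in the list was not tested. The 10 tested genes of the mitochondrial genome did not follow: their median was 0.30, mt-Nd2, a complex I subunit, rose by 0.76 ± 0.17 (edgeR adjusted p = 0.0375, called only without ND daughter 1 or 4 when a library was left out), and none fell. Of 81 cytosolic ribosomal protein genes 11 fell and none rose, 13.6% against 1.86% of all tested genes, with a median of -0.22. Rpl23 had 87.7, 91.5, 76.5 and 88.9 CPM in LPD, against 122, 148, 156 and 131 CPM in ND (-0.70 ± 0.10, edgeR adjusted p = 0.00494). Ribosomal protein genes have many near-identical pseudogenes, so the reads of Rpl23 and its relatives may be split between copies. Both counts depended on which library was left out, as the number of all calls did. There were 3, 2 and 2 respiratory genes that fell without LPD daughter 1, 2 or 3, 6 and 2 without ND daughter 2 or 3, and 20 without ND daughter 4. For ribosomal proteins the counts were 4, 5 and 1 without LPD daughter 1, 2 or 3, 7 and 6 without ND daughter 1 or 3, and 21 without ND daughter 4.

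**Figure D3:**
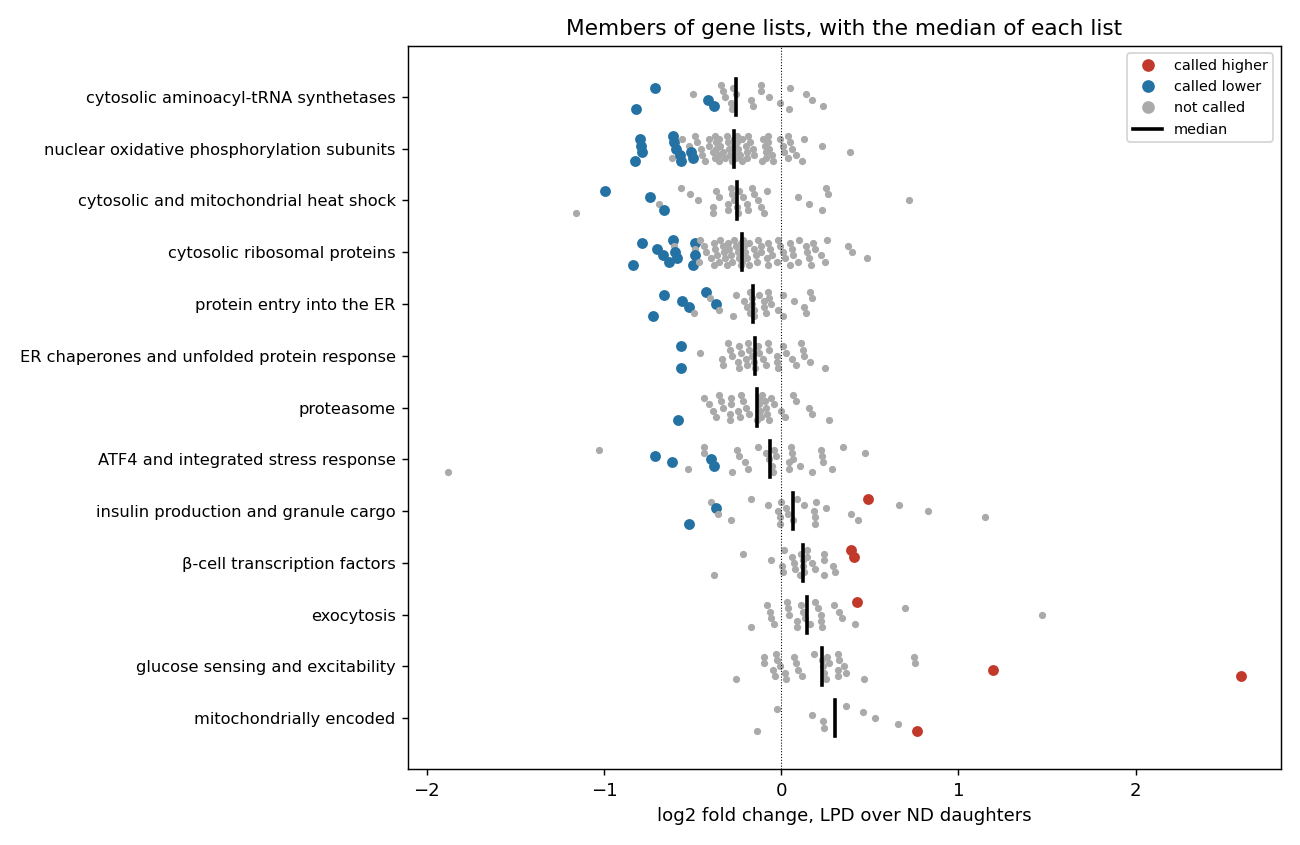
Log2 fold change of LPD over ND daughters on the x axis for tested members of 13 gene lists, 1 point a gene, red where called higher, blue where called lower and grey where not called. Black bars mark list medians, which run from -0.27 for nuclear respiratory subunits to 0.30 for the mitochondrial genome. The aminoacyl-tRNA synthetase and ER entry lists were written after some values were seen.

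Transcript length moved with the direction of the calls. When the tested genes were divided into 5 equal classes of length, in the shortest class (27 to 1961 bases) 10 rose and 71 fell, and the median log2 fold change was -0.13. In the longest class (7130 to 123179 bases) 39 rose and 6 fell, with a median of 0.05. The median length was 5061 bases for genes that rose, 1984 for genes that fell and 3935 for genes that did not pass. When each library was corrected for its trend with length, an alternative chosen after the data were seen, 204 genes were called, 176 of them among the 282. The respiratory subunits then had 4 called of 76 with a median of -0.19, the ribosomal proteins 9 of 81 with a median of -0.14, the synthetases 6 of 23 and the heat shock genes 3 of 35. What length stands for in these libraries was not tested.

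**Figure D4:**
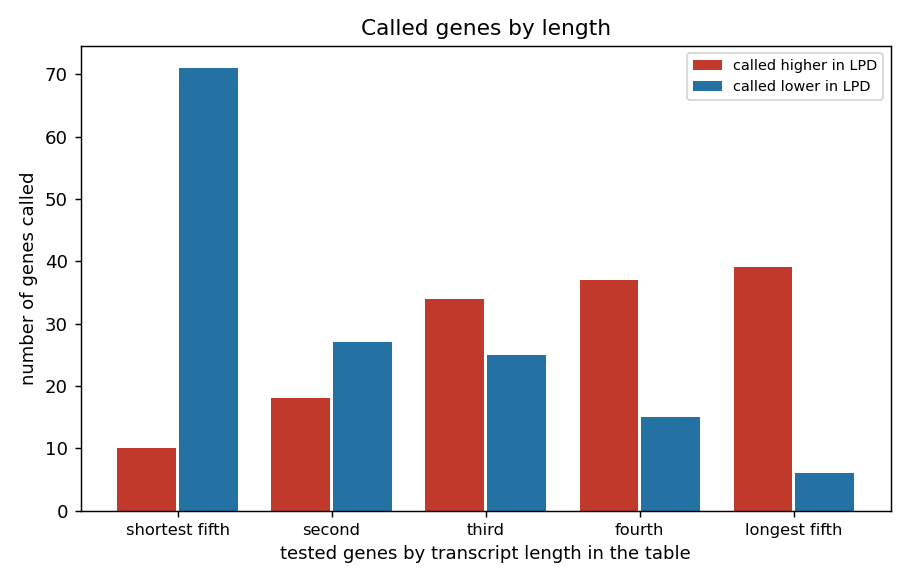
Number of genes called higher (red) and lower (blue) in LPD daughters, on the y axis, by 5 equal classes of transcript length as given in the table, on the x axis. The shortest class holds 10 genes called higher and 71 called lower, and the longest class 39 and 6.

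Of 27 tested genes of insulin production and granule cargo, 1 rose (Scg3) and 2 fell (Sec11c and Spcs2), 11.1% against 1.86% of all tested genes, with a median log2 fold change of 0.06. Without LPD daughter 3 none was called, without LPD daughter 1 or 2 or ND daughter 2 or 3 only 1 that fell, without LPD daughter 4 there were 4 higher and 1 lower, and without ND daughter 4 there were 5 higher and 2 lower. Pdx1, Nkx6-1 and Mafa, the core transcription factors of β cells, did not pass the test with all 8 libraries. With 1 library left out, Mafa was called only without ND daughter 4 (edgeR adjusted p = 0.00929), and Pdx1 and Nkx6-1 never. Pdx1 was at 293 to 347 CPM in LPD and 252 to 355 CPM in ND, Nkx6-1 at 1026 to 1107 CPM in LPD and 946 to 1095 CPM in ND, and Mafa at 1459 to 1535 CPM in LPD and 985 to 1970 CPM in ND (edgeR adjusted p = 0.597, 0.766 and 0.581). Foxo1, a transcription factor of insulin signalling, rose by 0.39 ± 0.09 (edgeR adjusted p = 0.0403), but it was called in only 1 of the 8 fits that left out a library, that without ND daughter 4 (edgeR adjusted p up to 0.143 in the others). Of the 25 tested β-cell transcription factors 2 rose and none fell, 8% against 1.86% of all tested genes, and the list's median was 0.13. None was called in 7 of the 8 fits that left out a library, and 4 rose without ND daughter 4. Myt1 and St18, of the Myt family of β-cell factors, were above all ND libraries but not called (0.15 ± 0.08 and 0.31 ± 0.10, edgeR adjusted p = 0.329 and 0.107). Ucn3, a marker of mature β cells, differed by 0.25 ± 0.11 (edgeR adjusted p = 0.237). Scg3, a granule protein that binds secretory cargo, rose by 0.49 ± 0.10 (edgeR adjusted p = 0.0261), at 1370 to 1540 CPM in LPD and 905 to 1129 CPM in ND, and was not called in 5 of the 8 fits that left out a library (adjusted p up to 0.101). Casr, the calcium-sensing receptor, rose by 0.49 ± 0.09 (edgeR adjusted p = 0.0201, and up to 0.0955 without LPD daughter 1 or 3 or ND daughter 2 or 3).

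The ratio of the insulin genes differed between the groups, while neither gene was called. Ins1 had 103396, 102338, 89990 and 90095 CPM in LPD, against 79927, 34463, 57745 and 71118 CPM in ND, above every ND library but not called (log2 fold change 0.67 ± 0.21, edgeR adjusted p = 0.114). Ins2 had 32765, 32359, 50594 and 85993 CPM in LPD, against 86240, 37125, 66877 and 74773 CPM in ND (-0.39 ± 0.30, edgeR adjusted p = 0.517). The count of Ins2 over that of Ins1 was 0.317, 0.316, 0.562 and 0.954 in LPD daughters, against 1.08, 1.08, 1.16 and 1.05 in ND daughters. The ratio was lower in 4 of 4 LPD libraries, by 1.18 on the log2 scale (exact permutation test, 2-sided, p = 0.029, the smallest possible). The ratio was chosen after the values were seen, and with any ND library left out p was 0.0571. The 2 genes are close copies, so reads could also be assigned between them. In sons the ratio was 0.941, 0.989, 0.951 and 0.219 in LPD and 0.982 to 1.03 in ND (exact permutation p = 0.0571).

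The same order of LPD daughters, with 1 and 2 together and 4 at the other end, was seen in other genes. Ddit4l, which encodes an inhibitor of the growth kinase complex mTORC1, had 8.45, 11.8, 57.2 and 112 CPM in LPD, against 6.23, 7.36, 5.88 and 11.1 CPM in ND (log2 fold change 2.63 ± 0.62, edgeR adjusted p = 0.0447). Only LPD daughters 3 and 4 were far above ND. With those left out together the log2 fold change was 0.40, and with LPD daughters 1 and 2 left out it was 3.46. These pairs were chosen after the values were seen, so both fits only describe the spread among LPD libraries. Without LPD daughter 3 or 4, or ND daughter 1, 2 or 3, Ddit4l was not called (edgeR adjusted p up to 0.173). Nnat, the imprinted gene for neuronatin, ran the other way, with 132, 126, 91.6 and 50.4 CPM in LPD, against 53.1, 43.0, 46.9 and 81.4 CPM in ND (0.83 ± 0.25, edgeR adjusted p = 0.0987). By chi-square per degree of freedom over genes, LPD daughters 1 and 2 resembled each other most of all replicate pairs. It was 6.07 for them and 18.0 to 63.0 for the other pairs. By correlation of log2 CPM their lead was slight, at 0.9903 against 0.9902 for ND daughters 1 and 3. LPD daughters 1 and 2 still differed by more than counting noise and were kept as 2 libraries. No source says what LPD daughters 1 and 2 share.

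**Figure D5:**
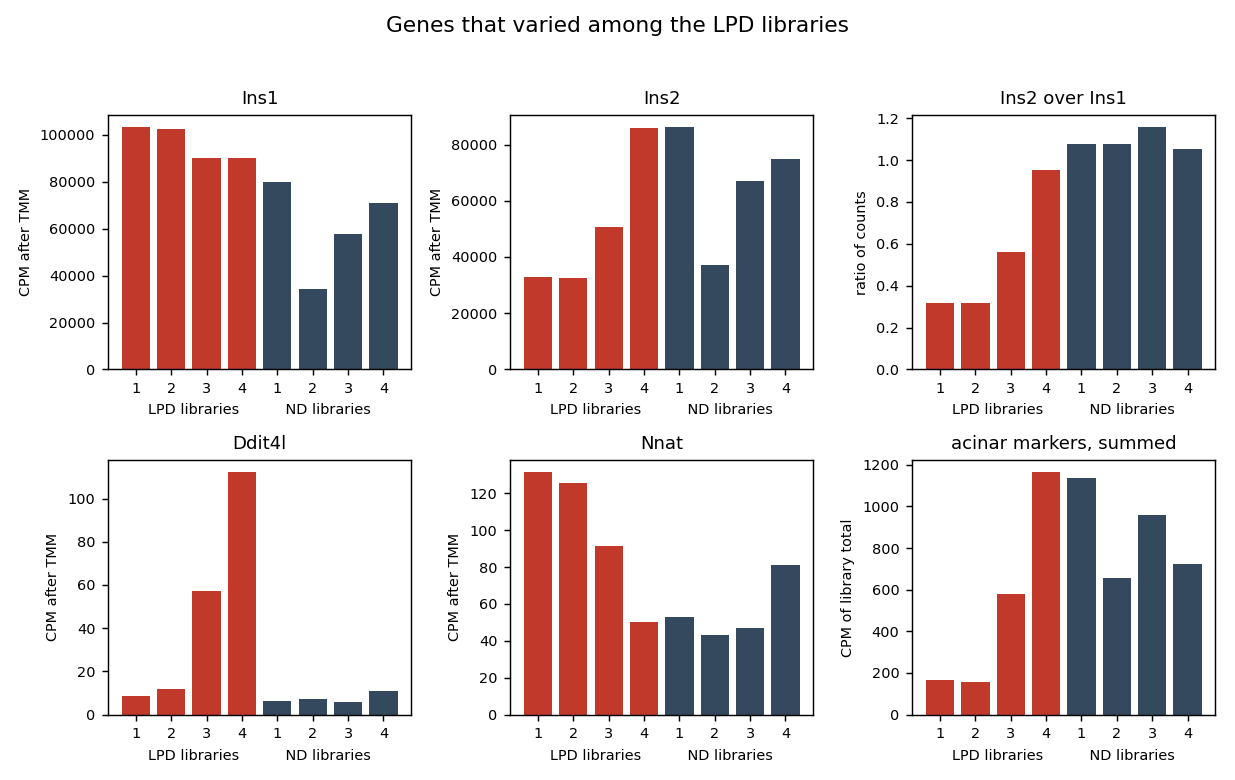
Values of each library, LPD daughters 1 to 4 (red) left of ND daughters 1 to 4 (dark), as bars from 0: CPM after TMM scaling for Ins1, Ins2, Ddit4l and Nnat, the ratio of Ins2 to Ins1 counts, and the summed CPM of acinar markers. Ddit4l reaches 57.2 and 112 CPM only in LPD daughters 3 and 4, while the Ins2 to Ins1 ratio is lowest, at 0.317 and 0.316, in LPD daughters 1 and 2.

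ND daughter 4 also stood apart. Lbp, the lipopolysaccharide-binding protein, had 0.581, 0, 0.970 and 0.457 CPM in LPD daughters, against 41.5, 27.2, 35.5 and 0.569 CPM in ND daughters. ND daughter 4 was thus at the level of the LPD libraries, and Lbp reached 1 CPM in only 3 libraries and was not tested. Lefty1, an inhibitor of Nodal signalling, had 0 counts in ND daughter 4 and 3.46 to 5.40 CPM in the 7 other libraries (log2 fold change 0.41 ± 0.63, edgeR adjusted p = 0.773). Arhgap36, an activator of hedgehog signalling, had 53.8, 52.5, 51.5 and 44.2 CPM in LPD, against 16.3, 11.9, 12.4 and 39.9 CPM in ND, again with ND daughter 4 next to the LPD group (1.32 ± 0.29, edgeR adjusted p = 0.0388). Without ND daughter 4 the Arhgap36 difference was 1.90 (edgeR adjusted p = 3.56e-06), while it was called neither without LPD daughter 1, 2 or 3 nor without ND daughter 1, 2 or 3 (adjusted p up to 0.143).

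Regulators of growth and metabolism held a few more changed genes. Cdkn1a, which encodes the cell cycle inhibitor p21, rose by 0.58 ± 0.13 (edgeR adjusted p = 0.0412), and Stmn1, a microtubule regulator of dividing cells, fell by 0.62 (edgeR adjusted p = 0.0403) and stood at 10.5 to 11.4 CPM in LPD and 13.7 to 20.1 CPM in ND. Inpp4b, a lipid phosphatase of insulin signalling, fell by 0.80, Tet1, which oxidises methylated cytosine, rose by 0.44, and Cpt1c, a carnitine palmitoyltransferase of the ER, rose by 0.55 (edgeR adjusted p = 0.0325, 0.0429 and 0.0484). Tet1 and Cpt1c were not called in 6 and 7 of the 8 fits that left out a library, or with a correction for gene length (edgeR adjusted p = 0.07 and 0.0636). Gstp1 fell by 0.74 and Gstm1 rose by 0.63 among glutathione transferases (edgeR adjusted p = 0.0112 and 0.0497), but Gstp1 was not called without LPD daughter 3 and Gstm1 in 6 of the 8 fits. Cdkn1a and Inpp4b were called only without LPD or ND daughter 4 when a library was left out, and Stmn1 only without ND daughter 2 or 4. No gene was called among the lists of amino acid transport (26 tested), cholesterol synthesis (28), fatty acid synthesis (21), glycolysis and citrate cycle (44), immediate early genes (30), circadian clock (21), imprinted genes (30) and interferon and MHC class I (28). Of 37 proteasome genes 1 fell, Psma5 (-0.58, edgeR adjusted p = 0.0132), a share of 2.7% near the 1.86% of all tested genes, and 5 fell without ND daughter 4. In the proteasome list 31 lay below 0, with a median log2 fold change of -0.14.

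The effect of LPD in daughters was set against its effect in sons, using 4 LPD and 4 ND libraries of sons in a fit of 16 libraries. Sons' values below are on the scale of that fit. The effects differed for 23 genes, 0.152% of those tested (edgeR interaction, adjusted p below 0.05), 12 of them more positive and 11 more negative in daughters. Of the 282 genes, 12 were among the 23. Rars had the smallest p: its log2 fold change was -0.83 in daughters and 0.10 in sons, a difference of -0.92 ± 0.13 (edgeR adjusted p = 0.00931). In sons Rars had 42.5, 42.1, 45.5 and 41.4 CPM under LPD and 40.3, 40.0, 39.6 and 40.6 CPM under ND. Nars had an effect of -0.72 in daughters and -0.04 in sons (difference -0.68 ± 0.12, edgeR adjusted p = 0.0381). Cdkn1a was higher in LPD daughters (0.57) and lower in LPD sons (-0.50), a difference of 1.07 ± 0.18 (edgeR adjusted p = 0.0381). Nt5dc3 and Creb3 fell in daughters (-1.01 and -0.61) and had effects of 0.05 and 0.12 in sons, differences of -1.06 ± 0.17 and -0.74 ± 0.13 (edgeR adjusted p = 0.0381 each). For Txnip the effects were 0.66 in daughters and -0.68 in sons, which missed the threshold (1.35 ± 0.28, edgeR adjusted p = 0.0597). In a fit of all 24 libraries Rars alone of the genes tested differed between the sexes (edgeR adjusted p = 0.0117). The number of differing genes was 1 without LPD daughter 1, 2 or 3 or without ND daughter 3, 12 and 18 without ND daughter 1 or 2, and 60 and 48 without LPD or ND daughter 4.

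For Agt, Kcnj5, Ddit4l, Hspe1 and Hspd1 the difference between sexes did not pass. Agt averaged 61.7 ± 2.0 CPM in LPD sons and 33.5 ± 2.05 CPM in ND sons (SD, n = 4 each), and its effects were 1.12 in daughters and 0.88 in sons, with a difference of 0.24 ± 0.18 (edgeR adjusted p = 0.638). Kcnj5 was at 20.4, 18.2, 22.9 and 3.98 CPM in LPD sons, against 9.75, 8.22, 8.36 and 4.33 CPM in ND sons, so that LPD son 4 lay below the ND sons. Its effects were 2.58 in daughters and 1.10 in sons, and the difference of 1.49 ± 0.50 did not pass (edgeR adjusted p = 0.212). Ddit4l rose in sons by 3.77 (edgeR adjusted p = 0.0065) and differed between sexes by -1.15 ± 0.84 (adjusted p = 0.621). Hspe1 and Hspd1 had effects of -0.43 and -0.48 in sons, with differences of -0.57 ± 0.23 and -0.19 ± 0.17 (edgeR adjusted p = 0.299 and 0.709).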

How the data were processed

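Raw counts per gene for 33619 genes, as deposited by the authors, were read by column name, and the FPKM values, which the authors' counts, gene lengths and library totals reproduce, served only for alternatives. The submitters' processing notes name cutadapt 2.10, STAR 2.7.8a, HOMER and DESeq2 with build GRCm38.p6. For the counting tool, strand setting and annotation release, the sources used here give nothing. The minimum RNA integrity number differs between fields of the labels. Samples were grouped by their titles. Genes with at least 1 CPM in at least 4 of the 8 libraries were tested in edgeR 4.0.16 (R 4.3.3) with TMM scaling and the quasi-likelihood F test, 2-sided, with Benjamini-Hochberg adjustment and a threshold of 0.05. The comparison with sons was an interaction contrast in 16 libraries. Summed marker CPM and the insulin ratio were tested by exact permutation over the 70 divisions of 4 against 4 libraries, marker sums as log2(CPM + 0.1). The share of insulin counts had 95% Wilson intervals at most 0.0311 percentage points wide, which, like the limit of 3 counts, cover counting error only.

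Alternatives were RLE scaling, scaling without the insulin genes, DESeq2 1.42.0, a robust fit, voom weights in limma 3.58.1, other filters, all 24 libraries, a replicate block, each library left out, log2(FPKM + 1) and log2(FPKM + 0.1) in limma, and groups by library number. A correction for length and leaving out LPD daughters in pairs were chosen after the data were seen. The scripts were tested on simulated counts with 200 changed genes.

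Members, gene lists and tests were chosen with earlier results of these data known. Named genes were called genes with at least 5 CPM and no overlap, the 12 per direction with the largest change and the 12 with the smallest p, up to 4 called members of each list (2 where none was called), a fixed set of β-cell and maternal diet genes, and up to 5 genes per direction of the interaction. Foxp2, Unc5a, Mars, Asns, Dnajb1, Ostc, Ost4, Hspa5 and Cela1 fell outside this rule and were named after their values were seen. Promoters were matched by symbol to RefSeq: 98 of the genes that rose and 104 of those that fell had an entry. Values of 2 genes of these lists are not reported here. Lists not described in the report had at most 2 called members.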

Additional observations from a re-analysis of the deposited data

Results flagged for a closer look

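Among the named genes, 248 sets of 4 libraries were examined for a library far from the rest by Dixon's test, and 14 stood out, 10 in ND and 4 in LPD daughters. Chance gives about 1 in 20, and 14 of 248 is near that share, so the libraries below are described and not read as results. In LPD, daughter 4 was highest for Nt5dc3 (22.6 CPM, the others 16.9 to 17.8) and for Cox7c (63.5 CPM, the others 44.8 to 47.7), so both moved towards ND. Daughter 3 was lowest for Gm25360, a small nuclear RNA (0.928 CPM, the others 3.24 to 3.45), and daughter 2 for Alas2, the erythroid enzyme of haem synthesis (4.49 CPM, the others 6.40 to 6.54).

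In ND, daughter 4 was high for Acly, the citrate lyase of fatty acid synthesis (3026 CPM, the others 2014 to 2154), for Arhgap36 (39.9 CPM, the others 11.9 to 16.3) and for the long noncoding RNA Gm17767 (21.4 CPM, the others 18.4 to 18.8). Daughter 3 was high for Rps16 (253 CPM, the others 179 to 188), Ndufc2 (73.1 CPM, the others 55.8 to 56.3) and Idh3a, an enzyme of the citrate cycle (59.5 CPM, the others 45.4 to 46.7), and low for Iqsec1 (15.8 CPM, the others 20.6 to 20.8). Daughter 1 was high for Nckap1, of the WAVE actin complex (215 CPM, the others 180 to 185), and low for B230112I24Rik (1.40 CPM, the others 2.68 to 2.75). Daughter 2 was high for Alas2 (8.38 CPM, the others 5.15 to 5.46).

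The effect of LPD differed between daughters and sons for the following genes. It was more positive in daughters for Cdkn1a (difference of log2 effects 1.07), Irf2bp2 (0.68), Ric8b (0.61), the protocadherin Pcdhgb5 (1.19) and the granule effector Exph5 (0.61). It was more negative in daughters for Rars (-0.92), Nt5dc3 (-1.06), Nars (-0.68), Creb3 (-0.74) and Rpsa-ps10 (-4.03), a ribosomal pseudogene whose reads may belong to its parent gene. The edgeR adjusted p was 0.00931 for Rars and 0.0381 for the others. In a fit of all 24 libraries only Rars passed (edgeR adjusted p = 0.0117).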

How the results depend on the processing

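The number of called genes was 282, with 138 higher and 144 lower in LPD daughters. It was 945 (484 higher, 461 lower) with DESeq2, 996 (563, 433) with voom weights, 739 (333, 406) with no filter, 67 (27, 40) in a fit of all 24 libraries, 77 (28, 49) on log2(FPKM + 1), 63 (21, 42) on log2(FPKM + 0.1) and 160 (82, 78) by library number. It was 57 (31, 26) without LPD daughters 1 and 2 and 142 (68, 74) without LPD daughters 3 and 4, both chosen after the data were seen. With 1 library left out it ran from 32 to 1167, higher calls from 11 to 684 and lower calls from 21 to 483. The share of higher calls was 48.9%, but 27.5% without ND daughter 3 and 58.6% without ND daughter 4. RLE scaling, scaling without insulin genes, the robust fit, the other filters and the length correction gave 204 to 344. Same-numbered LPD and ND libraries did not deviate together (correlations -0.04, -0.05, -0.08 and -0.08), and a replicate block gave 149 calls (69, 80). The 23 genes that differed between daughters and sons became 1 in a fit of all 24 libraries, 236 with DESeq2, 0 with the replicate block in edgeR (1778 at an unadjusted p below 0.05) and 1 to 60 with 1 library left out. Apart from library number, where 73 of 120 named genes had the other sign, the direction of named genes reversed 14 times, never for a called gene. Without LPD daughters 1 and 2 these were Pyy (-0.18), Ins2 (0.035), Myt1l (-0.016), Ngfr (-0.85) and Alas2 (0.079). Atf4 was 0.0076 with voom weights, 0.0069 with the length correction and 0.076 without LPD daughters 3 and 4. With 1 library left out, Ngfr ran from -0.069 to 0.75, Lefty1 from -0.017 to 0.69, Atf4 from -0.13 to 0.061 and Alas2 from -0.10 to 0.16. Why these counts and values moved was not tested. At this depth 3 counts were 0.117 to 0.149 CPM, which limits genes near that level.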

Other observations

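Spp1, a duct-cell marker that encodes osteopontin, was higher in LPD daughters. Of the 10 tested duct markers, 2 rose and none fell, 20% against 1.86% of all tested genes. In the list 5 lay above 0 and 5 below. Its median log2 fold change was -0.003 and its lowest -1.95. Spp1 had 6.21, 5.60, 11.1 and 10.5 CPM in LPD, against 3.46, 2.56, 2.7 and 5.0 CPM in ND (log2 fold change 1.28 ± 0.28, edgeR adjusted p = 0.0359). LPD daughters 3 and 4 were the highest, and LPD daughter 2 lay just above ND daughter 4. The summed duct markers were 720 to 803 CPM in LPD and 677 to 774 CPM in ND (exact permutation p = 0.143, adjusted p = 0.48).

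Rgs16, a regulator of G protein signalling, had 90.0, 78.9, 87.7 and 72.4 CPM in LPD, against 58.1, 59.6, 59.4 and 61.5 CPM in ND (0.46 ± 0.09, edgeR adjusted p = 0.0233). Sorl1, a sorting receptor of the endosome, had 217, 214, 214 and 222 CPM in LPD, against 167, 181, 147 and 164 CPM in ND (0.39 ± 0.08, edgeR adjusted p = 0.0351). Neither gene's groups overlapped. With 1 library left out, Rgs16 was called only without LPD or ND daughter 4, Sorl1 only without ND daughter 2 or 4 and Spp1 only without LPD daughter 2 or ND daughter 4.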
